A study of Mus musculus with 36 samples.

Results

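The endothelin genes Ednrb, Ednra, Edn1 and Ece1 were followed through every probe that the array annotation names with their symbols. There were 6 such probes, of 3 genes, among the 45281 probes and 19057 gene symbols of the array. Ednrb had 3, Edn1 had 1 and Ece1 had 2. No probe carried the symbol Ednra in the annotation used, so this gene was not analysed here. Ednrb was chosen because it rose steeply with retinoic acid on these same arrays. Its differences between schedules are therefore given as a description without a test, and the remaining genes, the compounds and the media are tested.

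The cells were mouse epiblast stem cells (EpiSC), pluripotent cells of the post-implantation epiblast, kept with FGF and Activin in medium conditioned by fibroblasts. RNA of 36 cultures was read on Illumina BeadArrays in 3 schedules. In the schedule without retinoic acid (RA), 13 cultures had a mock step in place of RA and a treatment for 24 h. With RA for 24 h there were 12 cultures, given 5 µM RA for 24 h and a treatment for 36 h. With RA for 36 h there were 11 cultures, given 5 µM RA for 36 h and a treatment for 24 h. The treatments were 10 small molecules, with 1 array for each molecule in each schedule, or basal medium (Mock), or medium conditioned by mouse embryonic fibroblasts (CM).

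The compounds were Rapamycin (100 nM, an mTOR inhibitor), PF573228 (250 nM, an inhibitor of focal adhesion kinase), Dorsomorphin dihydrochloride (2 µM, an inhibitor of BMP receptors and AMPK) and BAY 11-7082 (25 µM, an inhibitor of NF-kB activation). Next came Forskolin (50 µM), which raises cAMP, BAPTA-AM (10 µM), a calcium chelator that enters cells, and Docetaxel (500 pM), which stabilises microtubules. The last were Wortmannin (50 nM, a PI3-kinase inhibitor), Purmorphamine (2 µM, a Smoothened agonist) and SU5402 (2 µM, an FGF receptor inhibitor). Mock had 1 array in each schedule, and CM had 2 arrays without RA, 1 with RA for 24 h and none with RA for 36 h. The time with a treatment differs between schedules, the labels give no order of the agents, and the cultures are not stated to be independent, so p-values measure the spread between these arrays.

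Endothelins are short peptides cut from large precursors. Edn1 encodes the precursor of endothelin-1, Ece1 the membrane protease that makes the final cut, and Ednra and Ednrb the G-protein-coupled receptors that bind the peptides. In the embryo, Ednrb signalling is known from the neural crest, where its loss leaves the distal gut without neurons and the coat without melanocytes. Ednra with Edn1 is known from the shaping of the jaw. Retinoic acid acts through nuclear receptors that bind pairs of short DNA half-sites.

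Because Ednrb and Edn1 both stood higher with RA, the 250 bases before their annotated RefSeq starts (build GRCm38.p6) are shown in gene direction, with matches to the half-site letters AGGTCA and AGTTCA in capitals on either strand. Ednrb lies on the minus strand of chromosome 14 and its window is chr14:103843702-103843951. Edn1 lies on the plus strand of chromosome 13 with the window chr13:42301226-42301475.
Ednrb: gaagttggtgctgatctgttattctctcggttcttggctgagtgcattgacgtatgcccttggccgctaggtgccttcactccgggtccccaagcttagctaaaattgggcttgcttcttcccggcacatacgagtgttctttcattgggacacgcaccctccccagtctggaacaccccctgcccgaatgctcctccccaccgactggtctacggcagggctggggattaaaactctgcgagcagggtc
Edn1: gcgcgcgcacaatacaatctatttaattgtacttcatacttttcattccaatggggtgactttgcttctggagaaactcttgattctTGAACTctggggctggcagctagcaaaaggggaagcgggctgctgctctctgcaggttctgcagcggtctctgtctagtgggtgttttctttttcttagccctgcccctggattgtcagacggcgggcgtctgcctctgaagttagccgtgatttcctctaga
The Ednrb window held neither pattern. The Edn1 window held 1 match to AGTTCA, on the opposite strand, 163 bases before the start. Of all 32851 RefSeq windows of this length, 14% held AGGTCA and 11.8% held AGTTCA, so a single half-site is common, and a match is a description of letters and not a site. None of the 4 Ece1 windows held either pattern. GC content was 56.8% for Ednrb and 50.4% for Edn1, against a median of 52.4% over all windows.

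Mean raw signal per array ran from 336 to 692, and 37.1% to 43.1% of all probes had a detection p under 0.05 (brighter than nearly all negative control probes). Of the 45281 probes, 23999 were detected on at least 3 arrays and were tested, all 6 endothelin probes among them. All values below are log2 normalized intensities, and levels of different probes are not comparable. Slide and schedule went together, apart from the Mock culture without RA, whose slide was shared with 5 compound cultures of the RA 36 h schedule. Over the 23999 probes, the Mock array with RA for 24 h correlated at 0.9903 with the mean of the RA 36 h compound arrays and at 0.9877 with the mean of the compound arrays of its own schedule. The CM array of that schedule correlated at 0.9806 and 0.9828 with the same 2 means. Calls on the endothelin probes, on pathway genes and on markers that rest on these 2 arrays are set beside fits that leave out each of them. In this bulk RNA, a change in the share of cells that carry a transcript and a change in RNA per cell cannot be told apart.

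The labelled cell type was checked on its markers. All 7 epiblast markers tested (Pou5f1, Nanog, Fgf5, Otx2, Dnmt3b, Utf1 and Tdgf1) were detected on all 13 arrays without RA, and all 7 were lower with RA for 36 h than without RA in limma at an adjusted p under 0.05. Their summed level, as the mean log2 value of the list, lay between 6.47 and 7.53 with RA for 36 h, against 11.2 to 11.7 without RA.

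Ednrb, the receptor, was close to background without RA and detected with it. Its leading probe (ILMN_2589640, the one with the highest mean) read 4.75, 5.15 and 7.91 (lowest, median and highest) on the 13 arrays without RA. The same probe read 10.3, 10.6 and 12.5 on the 12 arrays with RA for 24 h, and 12.4, 12.5 and 13.1 on the 11 arrays with RA for 36 h. No array without RA reached any array with RA, but the share of all probes separated in this way was not counted. The RA 24 h compound arrays all lay below the RA 36 h arrays, while the RA 24 h Mock array, at 12.48, lay among them. In raw intensity units the median was 23.2 without RA, 1468 with RA for 24 h and 5132 with RA for 36 h. The probe was detected on 4 of 13, 12 of 12 and 11 of 11 arrays of the schedules in that order.

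The second Ednrb probe (ILMN_2917471) read 4.49, 4.72 and 6.16 without RA, 7.54, 8.50 and 10.1 with RA for 24 h, and 10.3, 10.7 and 11.5 with RA for 36 h. It was detected on 1 of 13, 12 of 12 and 11 of 11 arrays, and its schedules did not overlap. The share of all probes without such overlap was not counted, so nothing is read from this. The third probe (ILMN_2717765) is dim. Its readings were 4.40, 4.51 and 4.76 without RA, where no array detected it, 4.33, 4.97 and 6.21 with RA for 24 h, where 5 of 12 did, and 5.60, 6.16 and 6.83 with RA for 36 h, where all 11 did. For this probe the schedule with RA for 24 h overlapped both of the others.

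Fitted over schedule and treatment, the leading probe stood 7.18 higher (SE 0.22) on the log2 scale with RA for 36 h than without RA, and the second 6.02 higher (SE 0.16). Both start from a level at or near background without RA, so their size depends on the offset added before the log. With an offset of 50 in place of 16 they were 6.31 and 4.88. No array without RA detected the third probe, and its difference is given as at least 1.93-fold, from the mean of its RA 36 h arrays against the lowest signal of a detected probe. With RA for 24 h the differences from no RA were 5.53 (SE 0.21) for the leading probe and 3.88 (SE 0.16) for the second, from the same low level.

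All 11 matched pairs (the 10 compounds and Mock, each with and without RA) showed the leading probe higher with RA. The smallest gap was that of Docetaxel, 5.19 with RA for 36 h and 3.61 with RA for 24 h. Within the slide that held both conditions, 5 compound arrays with RA for 36 h exceeded the Mock array without RA by 6.85 on the leading probe and 5.92 on the second. That is 1 array without RA, and RA and the presence of a compound cannot be told apart there. In the authors' own normalized values, which compress dim signals, the RA 36 h difference was 4.20 for the leading probe and 2.59 for the second, and the RA 24 h difference 2.64 and 1.08.

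**Figure D1:**
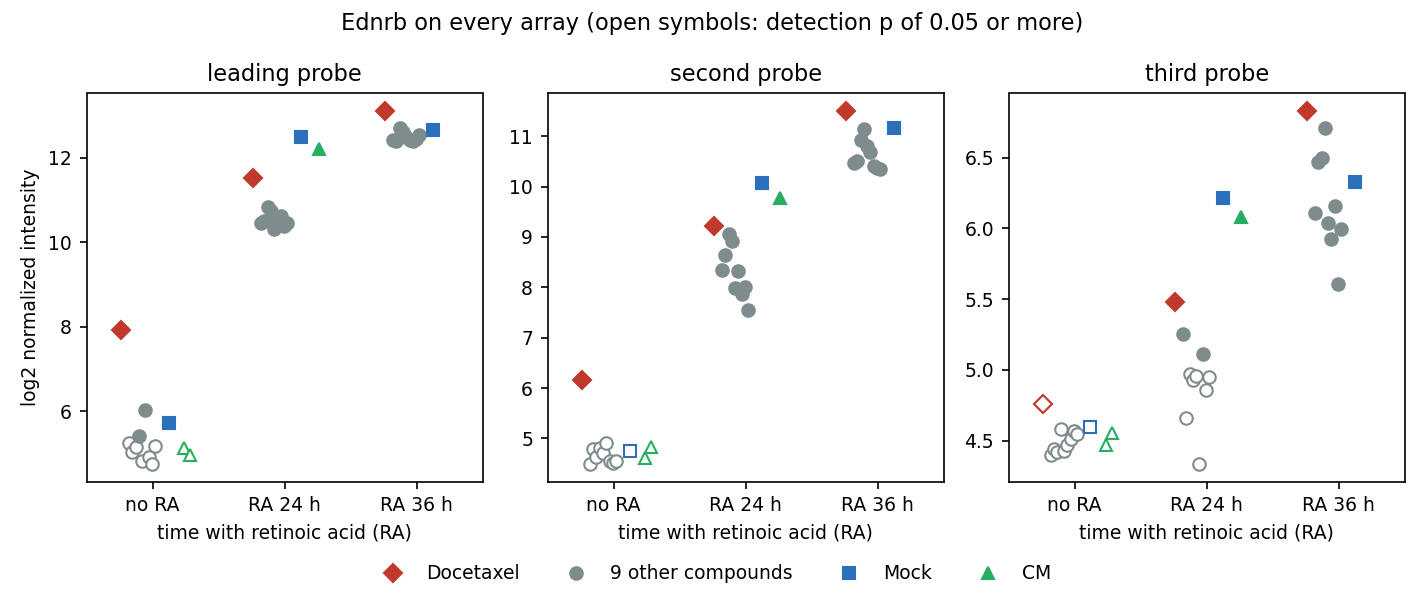
Log2 normalized intensity of the 3 Ednrb probes (panels) on all 36 arrays, grouped along the horizontal axis by time with retinoic acid, with Docetaxel, the 9 other compounds, Mock and CM as separate symbols and open symbols where the probe was not detected. With RA for 24 h the compound arrays of the leading probe lie at 10.3 to 11.5, below Mock at 12.5 and CM at 12.2. Docetaxel is the highest compound array in every schedule on every probe, although no array without RA detected the third probe.

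The 3 Ednrb probes moved together. Over the 23 arrays with RA, the leading probe had a Pearson r of 0.96 with the second and of 0.93 with the third. Arrays of these schedules share slides and the split between 24 h and 36 h, so these correlations are a description. Edn1 had an r of 0.53 with the leading Ednrb probe over the same arrays, and the brighter Ece1 probe 0.59.

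Edn1, the ligand precursor, rose with RA as well. Its probe (ILMN_2737713) read 4.89, 6.27 and 7.18 (lowest, median and highest) without RA, 7.15, 8.02 and 8.77 with RA for 24 h, and 8.24, 8.71 and 9.22 with RA for 36 h. The 11 arrays with RA for 36 h all lay above the 13 without RA, a description, since the share of all probes that do so was not counted. One array without RA, Docetaxel at 7.18, stood above the lowest RA 24 h array, Wortmannin at 7.15. Edn1 was 5.11-fold higher with RA for 36 h (2.35 on the log2 scale, SE 0.15, limma adjusted p = 3.7e-13) and 3.35-fold higher with RA for 24 h (1.74, SE 0.15, limma adjusted p = 9.8e-11), in 11 of 11 matched pairs each. Edn1 was lower with RA for 24 h than with RA for 36 h by 0.61 (difference -0.61, SE 0.15, limma adjusted p = 0.0028), in 10 of 11 pairs. The exception was Mock, at 8.77 with RA for 24 h and 8.36 with RA for 36 h. Within the slide that held both conditions, 5 compound arrays with RA for 36 h exceeded the 1 Mock array without RA by 1.84, where RA and the presence of a compound cannot be told apart.

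Ece1, the converting enzyme, was present throughout and moved little. Its brighter probe (ILMN_2745993) was detected on all 36 arrays and read 7.47, 7.77 and 8.07 without RA, 7.51, 7.96 and 8.35 with RA for 24 h, and 7.96, 8.17 and 8.53 with RA for 36 h. The schedules overlapped. It was 1.38-fold higher with RA for 36 h (0.46, SE 0.08, limma adjusted p = 1.7e-05), in 11 of 11 pairs, and 1.18-fold higher with RA for 24 h (0.24, SE 0.08, limma adjusted p = 0.0093), in 8 of 11. The RA 24 h call did not hold with median scaling of the arrays (0.11, adjusted p = 0.29) or with slide as a random block (0.25, adjusted p = 0.054). It was lower with RA for 24 h than with RA for 36 h by 0.23 (difference -0.23, SE 0.08, limma adjusted p = 0.027), in 10 of 11 pairs. The exception was again Mock, at 8.31 with RA for 24 h and 7.96 with RA for 36 h. This call was lost with slide as a random block (adjusted p = 0.12) and without PF573228, Dorsomorphin or BAPTA-AM (adjusted p = 0.069 each). The second Ece1 probe (ILMN_1255063) was detected on 3 of 36 arrays, and its difference with RA for 36 h was 0.06 (SE 0.10, limma adjusted p = 0.67).

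Leaving Ednrb aside, 2 of the 3 other endothelin probes were called higher with RA for 36 h, where 55% of all probes tested were called in either direction. The same 2 were called higher with RA for 24 h, where 60.2% were called, and lower with RA for 24 h than with RA for 36 h, where 37.4% were called. With so few probes, nothing is read from these counts.

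**Figure D2:**
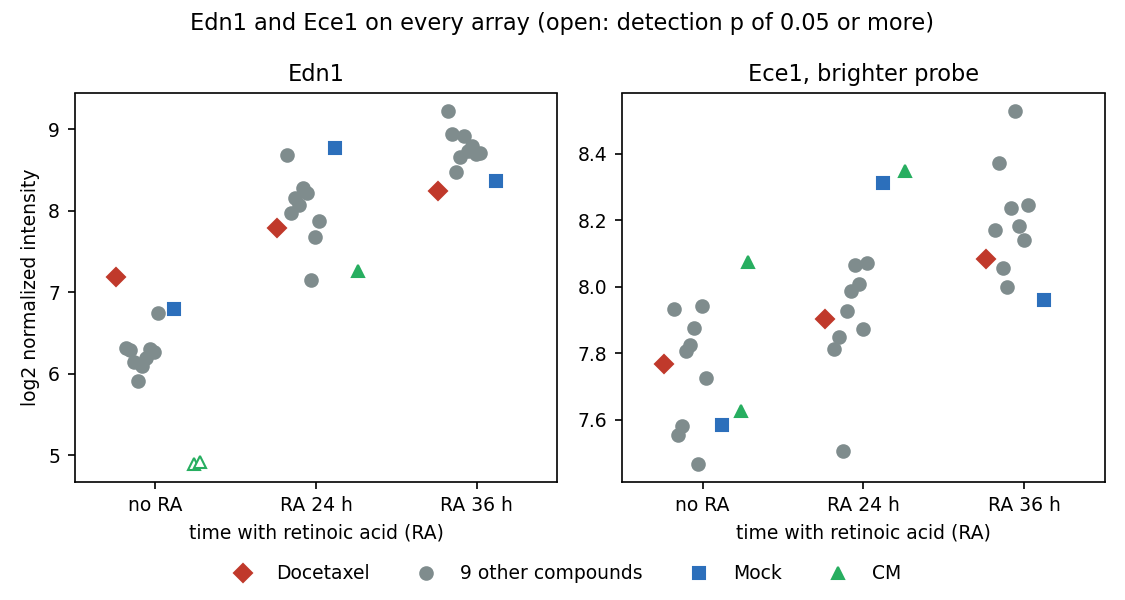
Log2 normalized intensity of Edn1 and of the brighter Ece1 probe on all 36 arrays by time with retinoic acid, with Docetaxel, the 9 other compounds, Mock and CM as separate symbols and open symbols where the probe was not detected. Edn1 climbs with RA and both CM arrays without RA sit apart at 4.89 and 4.92, while Ece1 stays between 7.47 and 8.53 throughout.

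Of 29 further genes of endothelin processing and signalling, 21 had a tested probe. With RA for 36 h, 4 were higher, 10 were lower and 7 did not pass the test, with a median log2 difference of -0.17 against -0.03 over all probes. In the RA 24 h schedule, 5 were higher and 5 lower. The shares of all probes called in these comparisons were 55% and 60.2%. Nppb, the precursor of a natriuretic peptide, rose most, by 1.82 (SE 0.16, limma adjusted p = 1.3e-10) with RA for 36 h and by 1.21 (SE 0.15) with RA for 24 h. The protein kinases C, which act below Gq-coupled receptors, differed among themselves. Prkca rose by 0.90 (SE 0.11) and Prkcd by 0.64 (SE 0.07) with RA for 36 h, while Prkce had a difference of -0.13 that did not pass.

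The phospholipases Plcb4 and Plcb3 fell by 0.66 (SE 0.12) and 0.35 (SE 0.09), and the calcium channels Itpr3 and Itpr2 fell by 0.55 (SE 0.17) and 0.30 (SE 0.12). Ecel1, a relative of the converting enzymes, was detected on no array with RA for 36 h, against 7 of 13 without RA, and was at least 1.11-fold lower. Nos3, the endothelial nitric oxide synthase, fell by 0.58 (SE 0.12). Arrb1 and Arrb2, the arrestins that quiet receptors, fell by 0.44 (SE 0.12) and 0.40 (SE 0.08). Gnaq, the G protein alpha subunit that couples endothelin receptors to phospholipase C, had a difference of 0.14 (adjusted p = 0.098), and Ece2, the second converting enzyme, one of -0.03 (adjusted p = 0.68).

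**Figure D3:**
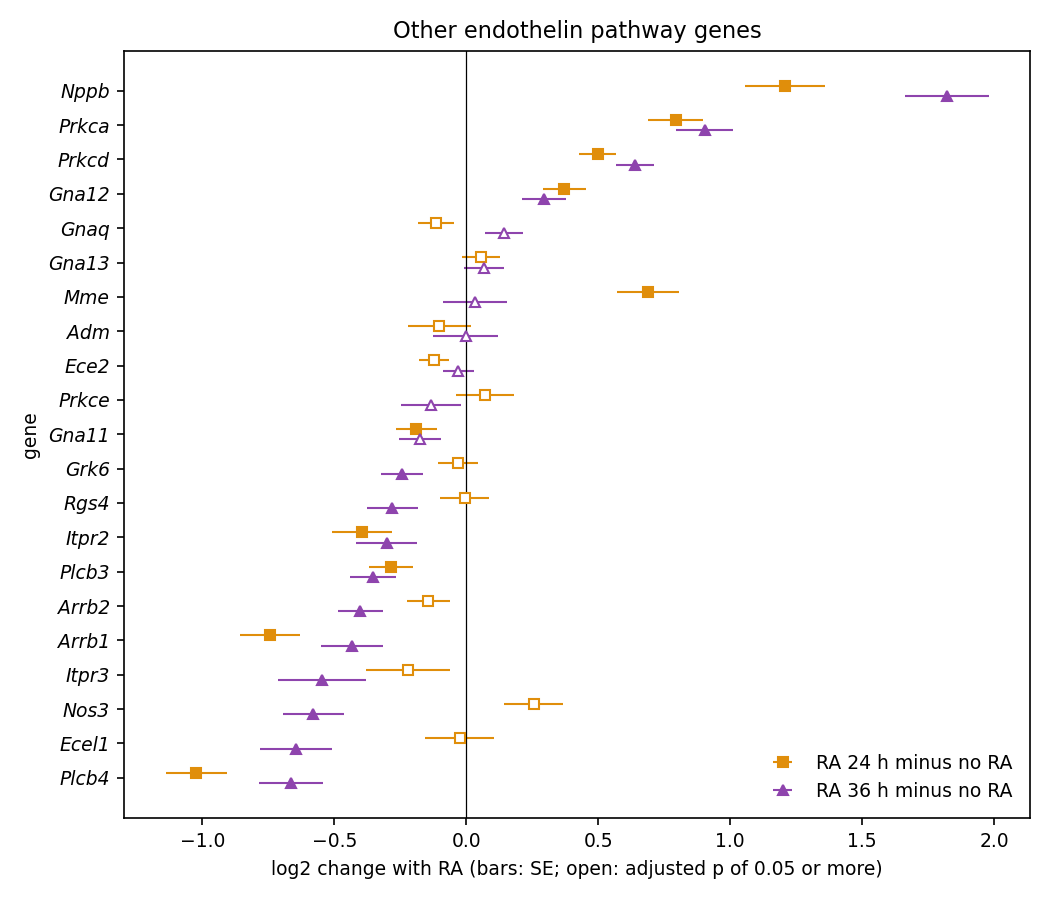
Log2 change with retinoic acid of the 21 other endothelin pathway genes tested (vertical axis), for RA 24 h minus no RA (squares) and RA 36 h minus no RA (triangles), with bars of 1 SE and open symbols where the adjusted p was 0.05 or more. Nppb, Prkca, Prkcd and Gna12 lie to the right in both schedules, and Plcb4, Arrb1, Itpr2 and Plcb3 lie to the left in both.

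Markers of cells in which Ednrb is known, and of other cell types, were read beside it. Of 12 neural crest markers tested, 7 were higher and 1 lower with RA for 36 h than without RA. For this and the lists that follow, 55% of all probes were called in the same comparison. Sox10, Foxd3, Tfap2a, Tfap2b, Snai2 and Ret were detected on no array without RA. These 6 passed the detection filter through arrays with RA alone and could hardly be called lower. The count and the list level therefore lean towards a rise. Sox10, a factor of migrating crest and glia, was detected on 11 of 11 arrays with RA for 36 h and was at least 3.01-fold higher (limma adjusted p = 5.8e-16), while Foxd3 was detected on 2 of 11 and Tfap2a on 3 of 11. The mean level of the crest list lay between 6.36 and 6.61 with RA for 36 h, against 5.64 to 6.02 without RA. Of 8 markers of neural progenitors, 7 were higher and 1 was lower, with list levels of 7.81 to 8.11 against 6.71 to 7.15. Of these 8, Pax6, Sox1, Hes5 and Zic1 were detected on no array without RA, so the same limit holds. Endothelial markers gave 1 higher and 1 lower of 4, with levels of 6.28 to 6.85 against 6.0 to 6.95, and smooth muscle markers 3 higher of 3, with 8.76 to 10.1 against 7.49 to 8.64. Fibroblast markers gave 3 higher and 1 lower of 5, with levels of 6.82 to 7.47 against 6.38 to 6.88, and Pdgfra was detected on no array without RA. The detection filter left out other listed markers on the array. It kept 12 of 16 for crest, 8 of 9 for neural progenitors and 4 of 9 for endothelium. For smooth muscle it kept 3 of 5 and for fibroblasts 5 of 7. Whether any of these cell types carried the Ednrb signal was not tested.

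Within RA 24 h, every compound array had less Ednrb than the arrays with no compound. The leading probe read 10.3, 10.5 and 11.5 (lowest, median and highest) on the 10 compound arrays, against 12.5 on Mock and 12.2 on CM. The second probe read 7.54, 8.34 and 9.22, against 10.1 and 9.77, and the third 4.33, 4.95 and 5.48, against 6.21 and 6.08. The groups did not overlap on any of the 3 probes, which are of 1 gene and were read on the same arrays. The share of all probes without overlap was not counted, so nothing is read from this. In a limma model of schedule by compound status the differences were -1.71 (SE 0.42, adjusted p = 0.0067), -1.53 (SE 0.34, adjusted p = 0.0024) and -1.19 (SE 0.21, adjusted p = 0.00013). The third probe was detected on 3 of these 10 compound arrays and on 0 of 13 arrays without RA. Its spread in the model includes readings near background, so its smaller p-value is not a stronger result. Here 6.89% of all probes were called, and 4 of the 6 endothelin probes were, all lower. The exact two-sided permutation test of the leading probe, 10 arrays against 2, gave p = 0.015, the smallest that its 66 arrangements allow. It shuffled arrays freely across slides, although Mock and CM lay on different slides, each with 5 compounds. Shuffling within slides allows fewer arrangements, so its smallest p would be larger. The test also takes 10 different compounds as 1 group, and Mock and CM as the other.

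Both slides of this schedule showed the gap on the leading probe. On 1 slide the mean of 5 compounds stood at 10.6 against Mock at 12.5, a difference of -1.91, and on the other slide 5 compounds averaged 10.7 against CM at 12.2, a difference of -1.51. The call rests on having both arrays, since the adjusted p was 0.10 without Mock (-1.57) and 0.076 without CM (-1.84). The second probe was not called without Mock either (-1.38). The third gave -1.26 to -1.13 over these fits, with most compound arrays of this schedule not detecting it. The brighter Ece1 probe read 7.51, 7.91 and 8.07 on the compound arrays, against 8.31 on Mock and 8.35 on CM (-0.43, SE 0.14, adjusted p = 0.046), and missed the threshold without Mock (adjusted p = 0.17), without CM (adjusted p = 0.32) and without the Docetaxel arrays (adjusted p = 0.059). Edn1 had a difference of -0.03 (SE 0.35, adjusted p = 0.99), with Mock at 8.77 just above the compound range of 7.15 to 8.68 and CM at 7.26 inside it.

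Without RA the same comparison of compound arrays with Mock and CM gave 0.17 (SE 0.35, adjusted p = 0.90) on the leading Ednrb probe, with 1.05% of all probes called and none of the 6. The RA 24 h difference minus the difference without RA was -1.88 (SE 0.55, adjusted p = 0.040), -1.62 (SE 0.44, adjusted p = 0.026) and -1.17 (SE 0.27, adjusted p = 0.0072) on the 3 Ednrb probes, where 4.25% of all probes were called. The call was lost in some of the fits that left out 1 Mock or CM array, with adjusted p up to 0.18, 0.16 and 0.062 for the 3 probes. Of the 13 arrays without RA, 4 detected the leading probe, 1 the second and 0 the third, so a fall there could not be read.

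Other markers moved with this gap. Of 7 epiblast markers, 5 were higher on the RA 24 h compound arrays, Pou5f1 by 2.85 (SE 0.26) and Utf1 by 2.38 (SE 0.27), and their list level lay at 7.47 to 7.89, against 5.92 to 6.47 on Mock and CM. The smooth muscle list lay at 8.17 to 9.15 against 9.89 to 9.96, with Acta2 and Myl9 called lower, and the neural progenitor list at 6.91 to 7.48 against 7.57 to 7.61, with Vim and Zic1 called lower and Slc1a3 higher. The crest list lay at 6.25 to 6.50 against 6.56 to 6.93, where Sox10, Ret, Msx1 and Ets1 were called lower and Kit higher. Of 4 endothelial markers Tek was called lower, with list levels of 6.56 to 7.12 against 6.63 to 7.75. Of 5 fibroblast markers Col1a2 was called lower and Thy1 higher, with 6.26 to 6.79 against 6.35 to 7.13. Pou5f1, Utf1, Dnmt3b, Vim and Acta2 kept their calls without Mock and without CM. Sox10 (adjusted p = 0.36), Ret (0.054) and Msx1 (0.28) lost theirs without CM, and Ets1 (0.35) without Mock. Kit, Slc1a3 and Col1a2 also lost theirs without Mock, and Otx2, Zic1, Tek, Thy1 and Myl9 without CM, while Nanog lost its call in both of these fits. The part of these in the Ednrb difference was not tested. Of the 21 other pathway genes only Mme, a peptidase that degrades small peptides, was called, with a difference of 1.25 (SE 0.28, adjusted p = 0.0030), which rested on the CM array (0.38, adjusted p = 0.72 without it).

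The step between the RA schedules shows the same arrays from another side. Between matched arrays the leading probe was lower with RA for 24 h than with RA for 36 h in 11 of 11 pairs. The 10 compound pairs differed by between -2.18 (Forskolin) and -1.58 (Docetaxel), and the Mock pair by -0.17. On the second probe the compound pairs ran from -2.81 to -1.88 and the Mock pair was -1.09, and on the third they ran from -1.81 to -0.74 with Mock at -0.12.

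Among the 10 compounds, Docetaxel stood out. It had the highest compound array on each of the 3 Ednrb probes in each of the 3 schedules. These probes are of 1 gene on the same arrays. The third was detected on no compound array without RA and on 3 of 10 with RA for 24 h, so its ranks there are near background. Over all probes tested, Docetaxel was the highest compound for 16.8% without RA, 10.4% with RA for 24 h and 12.4% with RA for 36 h. On the leading probe it read 7.91 without RA, where the other 9 compounds ran up to 6.04 (BAPTA-AM) with a mean of 5.17 ± 0.39 (SD, n = 9). With RA for 24 h it read 11.5, where the others ran up to 10.8 (Dorsomorphin) with a mean of 10.5 ± 0.17. With RA for 36 h it read 13.1, where the others ran up to 12.7 (Dorsomorphin) with a mean of 12.5 ± 0.11. The distance from the mean of the other 9 was 0.99 with RA for 24 h and 0.61 with RA for 36 h, where all 9 detected the probe. Without RA 2 of the other 9 detected it, so the distance of 2.74 there is one from near background. Whether the distance differs between schedules was not tested, with 1 Docetaxel array in each.

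**Figure D4:**
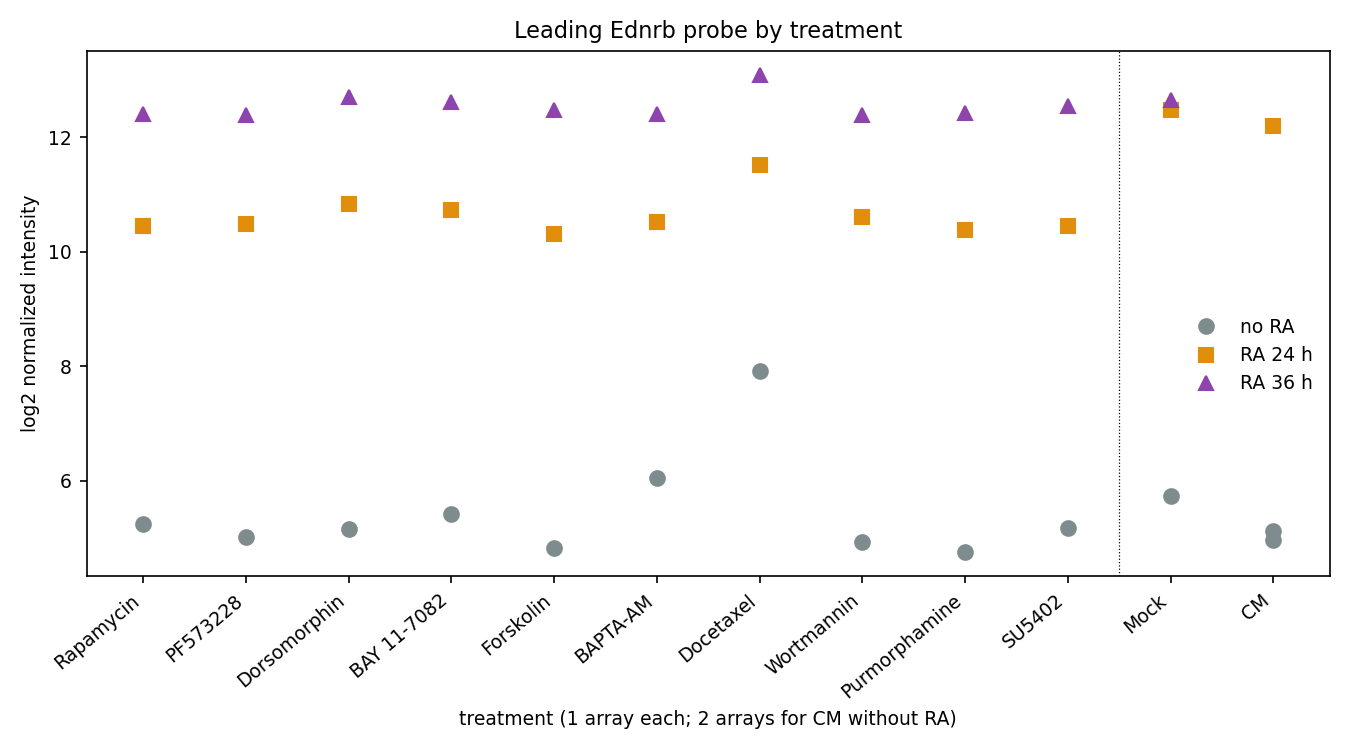
Log2 normalized intensity of the leading Ednrb probe (vertical axis) for each of the 10 compounds, Mock and CM (horizontal axis), with 1 symbol and colour for each schedule and 1 point an array. Docetaxel is the highest compound in each schedule, at 7.91, 11.5 and 13.1, and the RA 24 h and RA 36 h points are near each other only for Mock.

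Over the 3 schedules Docetaxel exceeded the mean of the other 9 compounds by 1.45 on the leading probe (SE 0.31, 2.73-fold, limma adjusted p = 0.040) and by 1.10 on the second (SE 0.24, 2.14-fold, limma adjusted p = 0.039). These averages include the distance from near background without RA. On the third probe the difference was 0.51 (SE 0.19, adjusted p = 0.42). Docetaxel had 55 called probes, 0.229% of those tested, and 2 of the 6 endothelin probes were among them. Both calls are near the threshold. The leading probe missed it in the authors' values (0.71, adjusted p = 0.22), with median scaling (1.20, adjusted p = 0.062), with no filter (adjusted p = 0.066), with slide as a random block (adjusted p = 0.052), against the 4 compounds on the same slides (adjusted p = 0.074), on the RA arrays alone (0.80, adjusted p = 0.37), without RA 24 h (1.68, adjusted p = 0.076), without RA 36 h (1.86, adjusted p = 0.22) and against Mock (0.56, SE 0.42, adjusted p = 0.71). The second probe missed it in the authors' values (0.49, adjusted p = 0.19), with median scaling (0.92, adjusted p = 0.062), with offset 50 (0.84, adjusted p = 0.065), with no filter (adjusted p = 0.063), on the RA arrays alone (0.89, adjusted p = 0.20), without RA 36 h (1.21, adjusted p = 0.42) and against Mock (0.30, adjusted p = 0.81).

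Against the Mock array of the same schedule, Docetaxel was 2.18 higher without RA, 0.96 lower with RA for 24 h (difference -0.96) and 0.45 higher with RA for 36 h. Its difference from the other 9 compounds was 0.05 (SE 0.22, adjusted p = 0.97) for Edn1 and -0.04 (SE 0.12, adjusted p = 0.96) for the brighter Ece1 probe. Edn1 with Docetaxel was the highest compound array without RA, 7.18 against 5.91 to 6.74, and the lowest with RA for 36 h, 8.24 against 8.47 to 9.22 with the others. None of the 21 other pathway genes was called for Docetaxel. Its array without RA also had list levels at the top of that schedule for neural progenitor markers (7.15, highest of 13) and smooth muscle markers (8.64, highest of 13). In the RA schedules Docetaxel instead had the lowest smooth muscle level (8.17 with RA for 24 h and 8.76 with RA for 36 h) and the lowest fibroblast level (6.26 and 6.82), and the highest epiblast level with RA for 24 h (7.89). Its epiblast level was near the low end with RA for 36 h (6.50 in 6.47 to 7.53) and without RA (11.3 in 11.2 to 11.7). Its neural progenitor level was 7.18 with RA for 24 h (in 6.91 to 7.61) and 7.83 with RA for 36 h (in 7.81 to 8.11). These list levels moved in different directions between schedules. Their part in the Ednrb difference was not tested.

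For each of the 9 other compounds, 0% of all probes were called by limma against the rest, with 697 to 1154 of 23999 probes at an unadjusted p under 0.05, and none of the endothelin probes was called. On the leading Ednrb probe their differences ran from -0.39 (Purmorphamine) to 0.13 (BAPTA-AM), each with an SE of 0.31. The 95% interval, without adjustment for the number of probes, was -1.04 to 0.25 for Purmorphamine and -0.51 to 0.77 for BAPTA-AM. With the same SE, the Docetaxel difference of 1.45 was near the threshold. Differences larger than these intervals could therefore also go uncalled with 3 arrays a compound. Against Mock, no compound passed on any of the 6 probes in limma, with a lowest adjusted p of 0.51.

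Conditioned medium went with less Edn1. The 2 CM arrays without RA read 4.89 and 4.92, neither of them detected, against 6.80 on Mock, which lay on another slide with RA 36 h cultures. The 10 compound arrays on the slides of these 2 CM arrays, 5 on each, read 5.91 to 7.18, all above both CM arrays. In the RA 24 h schedule CM read 7.26, against 8.77 on Mock, which also lay on another slide. CM and Mock thus shared no slide in either schedule, so medium and slide cannot be told apart between them. The 5 compound arrays on the slide of that CM array averaged 7.74 and ran from 7.15 to 8.22, so CM was within their range. Fitted over schedule and treatment on all 36 arrays, CM was lower than Mock by 1.51 (difference -1.51, SE 0.30, limma adjusted p = 0.0054), and 2.63% of all probes were called. The Mock level in this fit also draws on the RA 36 h schedule, which had no CM array. Without RA, where CM was not detected, the difference is at least 2.81-fold lower. The call was lost in the authors' normalized values (-0.32, adjusted p = 0.13) and without the Mock array of the no RA schedule (-1.39, adjusted p = 0.058). It held without each of the 5 other Mock or CM arrays, at an adjusted p of up to 0.044.

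Edn1 was the single endothelin probe of 6 called for CM. The leading Ednrb probe had a difference of -0.46 (SE 0.43, adjusted p = 0.65) and the brighter Ece1 probe one of 0.22 (SE 0.16, adjusted p = 0.53). Of the 21 other pathway genes, Mme fell by 1.39 (SE 0.24, limma adjusted p = 0.0013) and Nppb fell by 1.21 (SE 0.31, limma adjusted p = 0.032) in CM. Mme was called without each of the 6 Mock or CM arrays (adjusted p up to 0.028), and Nppb only without the RA 36 h Mock array (adjusted p up to 0.20 in the others). The fibroblast marker Dcn, the endothelial marker Flt1 and the crest marker Ets1 were also called lower in CM, as 1 gene each of lists of 5, 4 and 12. Each lost its call in some of the fits that left out 1 Mock or CM array, and their part was not tested.

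Over the 23 RA arrays, the genes whose leading probe was most like that of Ednrb, among 12366 symbols, were Irx5 (Pearson r 0.982), Emp1 (0.982), Crabp1 (0.980), Hoxd4 (0.980) and Irx3 (0.973). Dbx1, Megf10, Serpinf1, Vit and Ap1m1 followed, down to 0.964. Irx3, Irx5, Hoxd4 and Dbx1 are homeobox genes, and Crabp1 encodes a retinoic acid binding protein. Most unlike it were Soga3 (-0.977), 1700019D03Rik (-0.975), Glra2 (-0.966), Mup6 (-0.960) and Ntrk2 (-0.960). These arrays share the split by RA time and the gap between compounds and Mock or CM. Dbx1 shows both, with a compound mean of 6.08 and Mock at 11.0 with RA for 24 h, and a compound mean of 11.2 and Mock at 11.5 with RA for 36 h. Glra2 ran the other way, with a compound mean of 9.60 and Mock at 6.48 with RA for 24 h, and 6.24 and 6.34 with RA for 36 h. Over all 36 arrays the most like genes were Hoxd4 (0.994), Hoxb4 (0.994), Serpinf1 (0.992), Hoxd3 (0.992) and Lama1 (0.989), all chosen from the same arrays.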

How the data were processed

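The starting table held intensities of 36 arrays of 45281 probes, deposited as raw values with a detection p-value for each, per the file headers. Values below 0 show that background had been subtracted before deposit. The scanner software is not stated in what was used. The authors also deposited log2 values, made with lumi by variance stabilization and robust spline normalization per the series' design text, and these served as an alternative. Raw intensities were background-corrected with limma 3.58.1 (R 4.3.3) from the detection p-values, given an offset of 16, log2 transformed and quantile normalised. The filter asked for detection (p under 0.05) on 3 arrays or more. In the annotation, 34885 probes have 1 gene symbol, 18 have several and 10378 have none.

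Schedule and compound contrasts came from an additive limma model of schedule and treatment (22 residual degrees of freedom), and compound status within schedules from a model with 1 mean for each schedule and class (30 residual degrees of freedom). P-values were adjusted by the Benjamini-Hochberg method over 23999 probes with 0.05 as the threshold. Both models were tested on simulated data with known changes. The text names all probes of the 4 endothelin genes, the 6 pathway genes with the largest called changes with RA for 36 h (Nppb, Prkca, Plcb4, Ecel1, Prkcd and Nos3), the genes called for CM or compound status, and the genes most like or unlike Ednrb. Prkce, Plcb3, Itpr2, Itpr3, Arrb1, Arrb2, Gna12, Gnaq and Ece2 were picked after their values were seen. Members, lists and contrasts were chosen with earlier results of these data known. Alternatives were other scalings, offsets and filters, slide as a block, and leaving out treatments, schedules or arrays. The number of arrays limits the precision.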

Additional observations from a re-analysis of the deposited data

Results flagged for a closer look

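Among the 18 sets of 10 compound arrays examined (6 probes in 3 schedules), the gap of 1 array to its neighbour was large against the whole range in 6. For a single set, chance gives such a gap about 1 time in 20. The sets share arrays, and 3 of the 6 probes are of 1 gene, so they are not separate trials. Nothing about chance is read from their number. Docetaxel was the array set apart in 5 of these 6 sets. On the leading Ednrb probe it read 13.1 with RA for 36 h, 11.5 with RA for 24 h and 7.91 without RA. Without RA it read 6.16 on the second Ednrb probe and 4.76 on the third, which no array of that schedule detected. Dorsomorphin was low on the brighter Ece1 probe with RA for 24 h, at 7.51.

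The difference of compound arrays from Mock and CM on Ednrb was lower with RA for 24 h than without RA by limma, at -1.88, -1.62 and -1.17 on the 3 probes. Without RA 4, 1 and 0 of 13 arrays detected the probes, so a fall there could not be read. Leaving out 1 Mock or CM array gave adjusted p up to 0.18, 0.16 and 0.062.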

How the results depend on the processing

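The Docetaxel excess on the leading Ednrb probe stayed positive but missed the threshold in the authors' values (0.71), with median scaling (1.20), with no filter (1.45), with slide as a random block (1.44), against Mock (0.56), on the RA arrays alone (0.80), against the 4 compounds on the same slides (1.46) and without any 1 schedule (0.80 to 1.86). It passed with offset 50 and with a detection p under 0.01. On the third probe it reversed against Mock (-0.024). The fall of Edn1 in CM missed the threshold in the authors' values (-0.32) and in 1 of 6 fits without a Mock or CM array (-1.81 to -1.28 over the 6). Compounds against Mock and CM with RA for 24 h gave -1.84 to -1.57 on the leading Ednrb probe without CM or Mock, neither called.

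Counts of probes called over all compounds were 93 with median scaling, 19 against Mock and 2 to 69 without 1 schedule, against 55. RA 36 h against no RA gave 2547 with slide as a fixed block and 3045 within the shared slide, against 13189. RA 24 h against RA 36 h gave 5576 with slide as a random block, against 8974. Compound status called 692 to 1572 with RA for 24 h, leaving out 1 array, against 1653. Without RA it called 384 in the authors' values, 553 with slide as a random block and 5 to 1420 leaving out 1 array, against 251. CM against Mock called 188 to 1057 leaving out 1 array, against 632. The difference of the 2 compound comparisons called 694 to 1541 leaving out 1 array, against 1021. The slide block for compound status, the within-slide values of the RA 24 h schedule, the fit without Docetaxel and the fits of CM against Mock without 1 array were chosen after seeing the data. Where a cause is not named it was not tested. Of the values of endothelin probes followed under alternatives, 322 were labelled the same, 42 missed the threshold, 19 moved and 1 reversed. For a tested value, the same means that it kept its direction and its side of the threshold, called or not. The Ednrb differences between schedules have no test. For them the same means a shift of less than 1 residual SD, and moved means a larger shift. Dim signal limits the size of every difference from no RA: with offset 50 the third Ednrb probe differed by 0.98 with RA for 36 h. The schedule contrasts are paired by treatment in the additive model. No pairing by replicate number was used, since the labels number the CM arrays alone.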

Other observations

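On the Docetaxel array without RA, 7 of the 10 genes most like Ednrb over the RA arrays stood above all 9 other compounds. Over all 23999 probes tested this held for 16.8%. That array did not enter the choice of genes, but the Docetaxel arrays with RA did, where Ednrb was the highest compound reading. The choice thus favours genes high with Docetaxel, and the count is a description. Vit is counted among the 7 at 4.63, against up to 4.61 with the others. Hoxd4 read 7.09, against 4.46 to 5.02 with the other 9 compounds and 5.42 on Mock. Dbx1 read 6.52, against 4.57 to 5.22 and 5.41 on Mock, and Serpinf1 8.18, against 5.70 to 6.59 and 6.79 on Mock. Irx5, Crabp1 and Irx3 lay within the range of the other 9, Irx5 at 7.60 against 7.08 to 7.75. The cause was not tested, and there is 1 such array. On the Docetaxel arrays with RA, which entered the choice, 7 of the 10 genes also stood above the other 9 in each schedule. Over all probes this held for 10.4% with RA for 24 h and 12.4% with RA for 36 h.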
